A study of Drosophila melanogaster with 8 samples.

Results

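Neurotransmitters are made by dedicated enzymes, loaded into synaptic vesicles by vesicular transporters and taken back from the synapse by plasma membrane transporters, and 10 genes of these kinds were examined for binding of the E-protein Daughterless (Da) in adult Drosophila melanogaster heads. The enzymes were those encoded by ChAT, ple, Ddc, Trh and Gad1, the vesicular transporters those encoded by VAChT, Vmat, VGAT and VGlut, and the plasma membrane transporter that encoded by DAT. They belong to 4 transmitter systems: acetylcholine (ChAT, VAChT), monoamines (ple, Ddc, Trh, Vmat, DAT), GABA (Gad1, VGAT) and glutamate (VGlut). The genes were taken by symbol from the Ensembl gene models, 10 of 13945 protein-coding genes on the 6 chromosome arms. Trh, the neuronal tryptophan hydroxylase, was found under its current symbol Trhn, and the other 9 symbols matched as written. A peak was assigned to a gene when its summit, the position of highest pileup, lay in the gene or within 5 kb of it, so a peak could also lie at the promoter of another gene.

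To measure Da binding, head chromatin of 1- to 3-day-old flies was precipitated with an antibody to the FLAG tag. In the 3xFLAG-Da line the endogenous Da protein carries the tag in every cell that makes it. The Control line, white*, lacks any FLAG sequence, and its precipitate shows what antibody and procedure enrich without the tagged protein. The 3xFLAG-Da heads came from both sexes in about equal numbers. Each line gave 2 immunoprecipitated (IP) and 2 input samples, and the inputs entered only through peak calling. Because whole heads were used, binding in few cells and weak binding in many cells cannot be told apart.

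Da belongs to the basic helix-loop-helix (bHLH) proteins, which bind the E-box, CANNTG, as dimers. In flies its partners include the proneural proteins Achaete, Scute and Atonal, with which it turns ectodermal cells into neural precursors. Transmitter genes are marker genes of mature neuron types: ChAT and VAChT of cholinergic neurons, the most abundant excitatory type in the fly brain, ple and DAT of dopaminergic neurons, Trh of serotonergic neurons, Gad1 and VGAT of GABAergic neurons, and VGlut of glutamatergic neurons. ple and Ddc also serve the epidermis, where dopamine is a precursor for the hardening and colouring of the cuticle.

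The sequences on which the results turn are shown first, read 5′ to 3′ on the strand of the gene from Release 6 of the genome (RefSeq), in lower case with every E-box in capitals. The upstream sequences of ple and VGlut are the 250 bases before the transcript start and are set side by side because both hold CAGCTG while only ple had peaks. That of ple is chr3L:6719526-6719775, minus strand, and that of VGlut is chr2L:2400045-2400294, plus strand.
ple upstream: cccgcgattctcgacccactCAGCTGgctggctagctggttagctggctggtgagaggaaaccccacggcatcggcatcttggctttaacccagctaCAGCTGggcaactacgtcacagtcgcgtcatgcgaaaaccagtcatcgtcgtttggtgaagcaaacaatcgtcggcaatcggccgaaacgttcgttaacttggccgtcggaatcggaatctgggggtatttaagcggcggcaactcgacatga
VGlut upstream: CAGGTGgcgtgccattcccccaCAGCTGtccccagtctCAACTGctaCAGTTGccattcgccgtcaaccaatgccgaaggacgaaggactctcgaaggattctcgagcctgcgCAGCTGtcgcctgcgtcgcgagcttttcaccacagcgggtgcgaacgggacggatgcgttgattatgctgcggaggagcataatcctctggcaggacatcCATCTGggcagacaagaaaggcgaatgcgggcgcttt
The upstream sequence of ple held 2 E-boxes, both CAGCTG, with first bases at −230 and −153 from the start. That of VGlut held 6, of which 2 were CAGCTG, with first bases at −228 and −137. Further windows of 101 bases are centred on summits of 3xFLAG-Da IP replicate 1. They show the promoters of Ddc (chr2L:19120352-19120452, minus strand) and ChAT (chr3R:18705237-18705337, plus strand), a strong peak downstream of ple (chr3L:6710237-6710337, minus strand), and the promoter of CG10561, the gene that follows Ddc (chr2L:19114287-19114387, minus strand).
Ddc promoter: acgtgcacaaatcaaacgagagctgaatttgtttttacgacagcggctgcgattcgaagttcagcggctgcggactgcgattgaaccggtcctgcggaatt
ChAT promoter: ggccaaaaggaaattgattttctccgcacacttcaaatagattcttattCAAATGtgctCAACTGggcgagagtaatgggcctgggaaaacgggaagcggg
ple downstream: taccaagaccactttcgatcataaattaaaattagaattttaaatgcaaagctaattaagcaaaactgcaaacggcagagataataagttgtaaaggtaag
CG10561 promoter: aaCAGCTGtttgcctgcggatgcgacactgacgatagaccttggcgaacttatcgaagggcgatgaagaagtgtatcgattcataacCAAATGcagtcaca
The windows of the Ddc promoter and of the ple downstream peak held 0 E-boxes. The ChAT window held CAAATG and CAACTG, and the CG10561 window held CAGCTG and CAAATG.

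Replicates 1 and 2 of 3xFLAG-Da IP had 10915 and 8745 peaks, and those of Control IP 453 and 707. Coverage, recovered from the lists as fragments per position, was 9.36 and 4.17 in the 3xFLAG-Da IP libraries and 1.92 and 1.72 in the Control IP libraries. Peak height is given as the deposited fold, that is, fragments piled up at the summit over those in the local background, each plus 1. Where the local background equalled the coverage, a called peak had to reach a fold of 1.93 and 2.51 in the 3xFLAG-Da IP libraries and 3.42 and 3.67 in the Control IP libraries, so weaker peaks could be called in the 3xFLAG-Da libraries and in replicate 1 most of all. A 3xFLAG-Da region below is a stretch where peaks of both 3xFLAG-Da IP replicates overlapped and no Control IP peak did. There were 6649 such regions. A region or summit within 1000 bp of a transcript start is called a promoter region or summit of that gene.

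The 10 genes together had 19 and 11 summits in 3xFLAG-Da IP replicates 1 and 2, and 1 in each Control IP library. The mean was 15 ± 5.66 in 3xFLAG-Da and 1 ± 0 in Control (SD, n = 2 each). The groups did not overlap, and the exact permutation test over libraries (two-sided) gave p = 0.333, below which 2 libraries against 2 cannot go. The intervals covered 185.2 kb in all, since ChAT and VAChT share one, and held 1.03 and 0.594 summits per 10 kb in the 3xFLAG-Da lists and 0.0540 in each Control list. Over the chromosome arms the density was 0.815 and 0.653 summits per 10 kb in 3xFLAG-Da and 0.0332 and 0.0516 in Control. The density at the transmitter genes was thus above that of the arms in replicate 1 and below it in replicate 2.

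Counted by gene, 8 of the 10 had at least 1 summit in 3xFLAG-Da IP replicate 1 and 6 of the 10 in replicate 2, against 78.2% and 70.2% of all protein-coding genes. In each Control IP library 1 of the 10 had a summit, DAT in both, against 8.01% and 11.6% of all genes. VGAT and VGlut, 2 of the 10, had 0 summits in all 4 lists, and 20.5% of all genes had 0 in both 3xFLAG-Da lists. A 3xFLAG-Da region was assigned to 5 of the 10 genes (ple, Ddc, Trh, Vmat and Gad1), against 65.1% of all genes. A 3xFLAG-Da region at the gene's own promoter was found at 2 of the 10, ple and Ddc, against 38.8% of all genes. On replicate 1 alone, without replicate 2, these counts were 8 and 4 of the 10, against 76.2% and 51.7% of all genes on the same footing. No test was run on these shares, which rest on 10 genes.

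**Figure D1:**
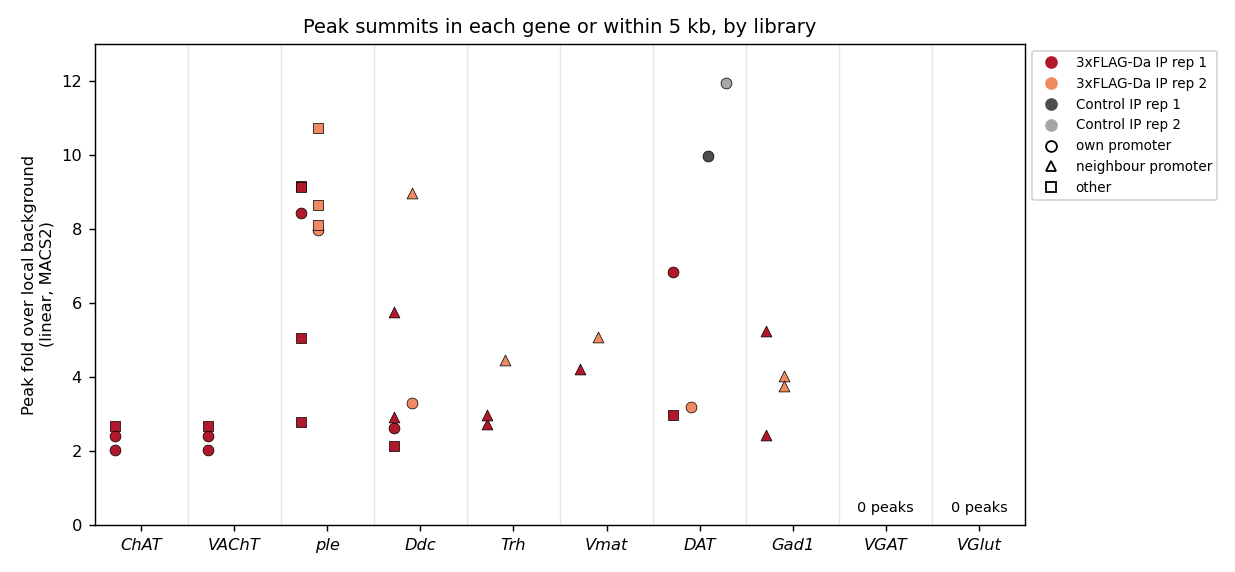
Peak summits in each of the 10 genes or within 5 kb, plotted by the authors' fold over local background (linear scale), with colour for the library and marker shape for the position of the summit. The folds of ple lie between 2.78 and 10.7 in the 3xFLAG-Da IP libraries, DAT is the only gene with Control points, at 9.96 and 11.9, and ChAT and VAChT show the same 3 replicate 1 peaks since their intervals coincide at the start.

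Among the enzymes, the clearest binding was at ple, which encodes tyrosine hydroxylase, the enzyme that makes the dopamine precursor L-DOPA and sets the rate of dopamine synthesis. ple lies on 3L at 6713356 to 6719525 on the minus strand. The folds of its promoter peak were 8.43 and 7.98 in the 3xFLAG-Da IP replicates, from 97 and 54 fragments, and neither Control list had a peak there. The summits lay 136 and 122 bp upstream of the start and 14 bp from each other, close to the CAGCTG at −153 in the ple upstream sequence printed above. By fold the peak stood within the top 7.58% of the replicate 1 list and the top 17.9% of the replicate 2 list.

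ple had 2 further 3xFLAG-Da regions, both beyond the end of the gene, and they were as high as the promoter peak. The nearer, at 6711875 to 6713312, had folds of 9.14 and 8.65, with summits 527 and 590 bp past the gene end. The farther, at 6709932 to 6711206, reached 9.16 in replicate 1 and was split in replicate 2 into peaks with folds of 10.7 and 8.12. Its summit lay 3069 bp past the gene end in replicate 1. No E-box of any kind lay within 50 bp of the 5 downstream summits of these regions, as in the ple downstream window above. The next gene, CG8519, has its nearest start 2702 bp from the replicate 1 summit of the farther region and 5244 bp from that of the nearer one, so neither region lay at an annotated promoter. Replicate 1 had 2 more peaks that replicate 2 lacked, with a fold of 5.04 at 4134 bp past the gene end and a fold of 2.78 at 1002 bp upstream of the start, which is 2 bp outside the promoter limit.

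The nearest Control IP summits lay 119099 and 27877 bp from ple. All 3 regions at ple would still have passed the Control threshold with their pileup scaled to Control coverage.

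Ddc, which encodes the decarboxylase that turns L-DOPA into dopamine and 5-hydroxytryptophan into serotonin, had the second own promoter region, a weak one. Ddc lies on 2L at 19116483 to 19120306 on the minus strand. The 3xFLAG-Da folds of its promoter peak were 2.62 (34 fragments) and 3.28 (18 fragments), with 0 Control peaks. Both values stood among the lowest of their lists, at 85.0% and 85.1% by rank, where 100% is the weakest peak. The summits lay 96 bp upstream and 83 bp downstream of the start, 179 bp apart, and no E-box lay within 50 bp of either. Scaled to Control coverage the peak did not pass the Control threshold in either replicate, so a Control peak of this size was not detectable at that depth.

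A stronger region in the Ddc interval belonged by position to a neighbour. It lay at the start of CG10561, past the end of Ddc, with folds of 5.76 and 8.97 in the 3xFLAG-Da IP replicates and summits 64 and 23 bp from the CG10561 start. CAGCTG lay within 50 bp of both summits. Replicate 1 alone had peaks 1395 bp upstream of Ddc (fold 2.12) and at the start of Phb1, a mitochondrial prohibitin gene (fold 2.91).

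At Trh, which encodes the enzyme that begins serotonin synthesis, 0 summits lay at the promoter. The gene lies on 3L at 1190384 to 1193173 on the minus strand. Its single 3xFLAG-Da region had folds of 2.97 and 4.44 in replicates 1 and 2, with summits 3022 and 3109 bp upstream of Trh. These were 122 and 35 bp from the start of Aplip1, a gene for a kinesin and JNK pathway adaptor. The replicate 2 summit had CAGCTG and CAGATG within 50 bp. Replicate 1 alone had a peak 525 bp from the start of CG13912 (fold 2.72), and neither Control list had a peak in the interval.

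Gad1, which encodes the enzyme that makes GABA from glutamate, likewise had peaks at the promoters of other genes and 0 at its own 3 starts. Gad1 lies on 3L at 4074077 to 4088744 on the minus strand. Its one 3xFLAG-Da region had its summit at 4071572 in both replicates, with folds of 2.43 and 4.02, 145 bp from the start of wit, which encodes a BMP receptor, and 14271 bp from the nearest start of Gad1. Replicate 1 had a peak at CG14990 (fold 5.24) and replicate 2 a peak at Faa, the fumarylacetoacetase gene (fold 3.75), each absent from the other replicate. The Control lists had 0 peaks in the interval.

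ChAT encodes choline acetyltransferase, and VAChT, which encodes the vesicular transporter for acetylcholine, is nested in it and shares its start. ChAT lies on 3R at 18705501 to 18732344 on the plus strand. The pair had 3 peaks in the first 3xFLAG-Da IP library and 0 in the other and in both Control lists. Their folds were 2.40 at 214 bp upstream of the shared start, 2.03 at 768 bp downstream of it and 2.66 at 4854 bp downstream, the last with a CAGCTG within 50 bp of its summit. All 3 stood in the weakest part of their list, between 83.8% and 98.6% by rank. Scaled to the coverage of replicate 2, the last would have passed its threshold and the other 2 would not. The nearest replicate 2 summit lay 6253 bp from the gene. None of the 3 would have passed at Control coverage. Peaks at the cholinergic locus were thus seen in 1 of 2 replicates, and the part of depth in this was not tested further.

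**Figure D2:**
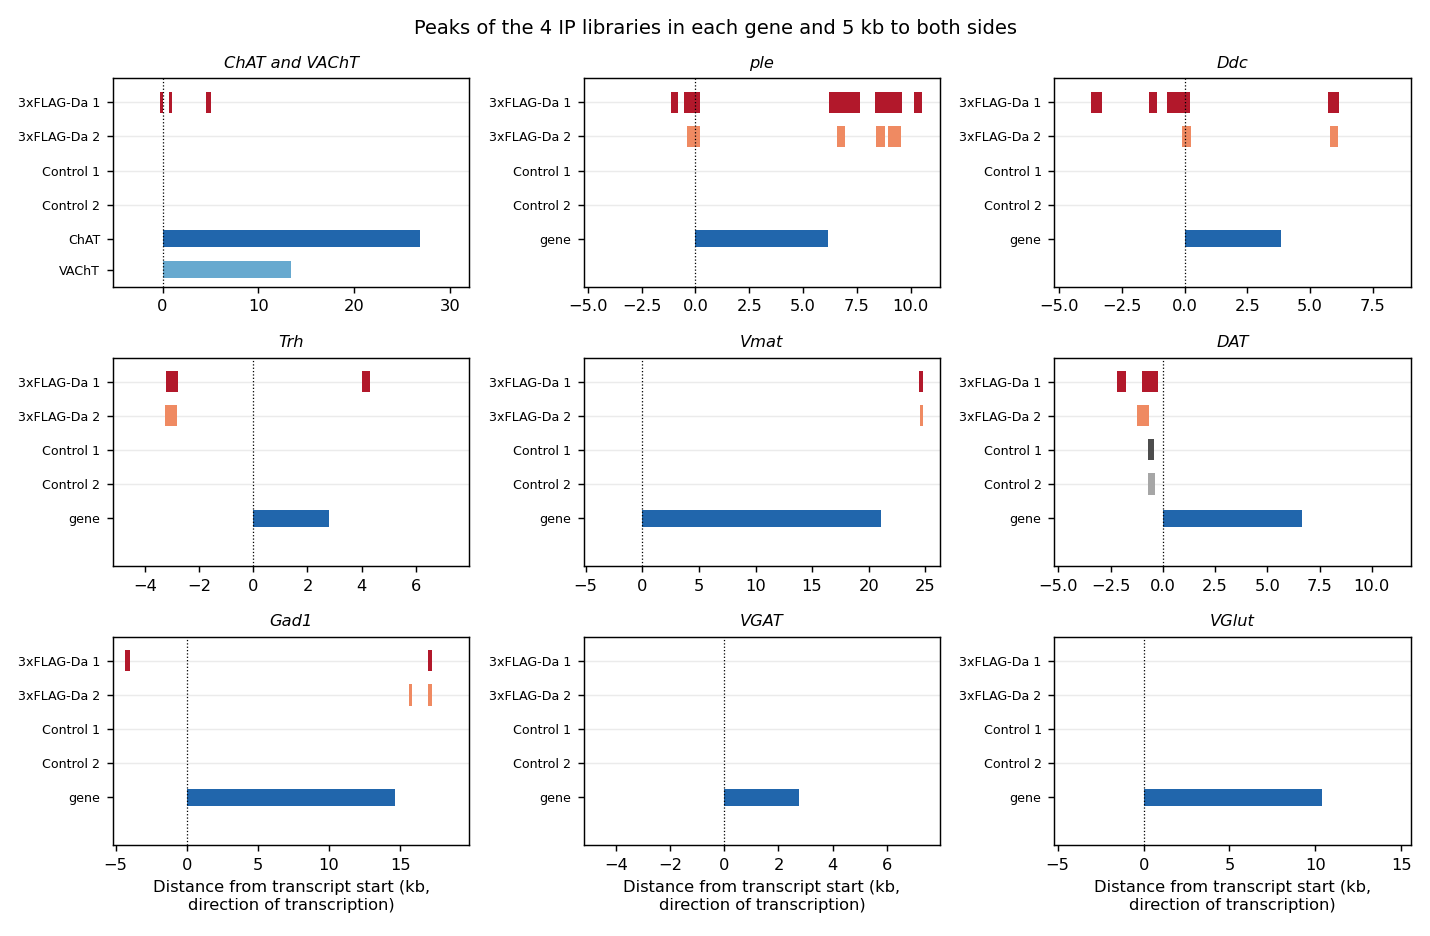
Peaks of the 4 IP libraries along each gene and 5 kb to both sides, drawn by distance from the first transcript start in the direction of transcription (kb), with gene bodies as blue bars and VAChT as a second bar under ChAT. ple has peaks of both 3xFLAG-Da IP replicates at the start and past the end, DAT is the only panel with Control peaks, and the panels of VGAT and VGlut are empty.

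Among the vesicular transporters, 0 of 4 had a 3xFLAG-Da region at their own promoter, against 38.8% of all genes, and with 4 genes this was not tested. VGlut lies on 2L at 2400295 to 2410662 on the plus strand, and loads glutamate, the transmitter of the fly motor neurons. It had 0 peaks in any list, and the nearest 3xFLAG-Da summits lay 9974 and 17753 bp from the gene, against 206741 and 197583 bp for the nearest Control summits. VGAT, on 2R at 14198478 to 14201249 on the minus strand, loads GABA and also had 0 peaks, with the nearest 3xFLAG-Da summits at 6681 and 11292 bp and the nearest Control summits at 41726 and 41758 bp. Vmat, on 2R at 13513132 to 13534251 on the minus strand, loads dopamine, serotonin, octopamine and histamine into vesicles. It had 1 peak in each 3xFLAG-Da IP replicate, with folds of 4.21 and 5.08, and 0 in Control. Their summits lay 10 bp or less from the start of mip120, which encodes a member of a Myb complex, past the end of Vmat, and 20265 and 20247 bp from the nearest of its own 3 starts. CAGCTG lay within 50 bp of the summit at mip120.

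DAT, which encodes the dopamine transporter of the plasma membrane and lies on 2R at 16558567 to 16565238 on the minus strand, was the one listed gene with peaks in every list. The fold was 6.83 and 3.18 in 3xFLAG-Da IP, against 9.96 and 11.9 in Control IP. The folds of both Control libraries were thus above those of both 3xFLAG-Da libraries, and this shared region was not counted as a 3xFLAG-Da region. The summits lay 580 and 818 bp upstream of DAT in 3xFLAG-Da and 572 and 566 bp upstream in Control. The replicate 1 summit of 3xFLAG-Da lay within 20 bp of the Control summits, and that of replicate 2 lay 238 bp away from replicate 1, 33 bp from the start of the divergent gene CG4945. The replicate 1 summit and the Control summits were also nearer to the CG4945 start than to that of DAT, at 205, 213 and 219 bp. Replicate 1 alone had a further peak at −1928 bp from the DAT start (fold 2.98).

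To compare transmitter systems, summits were summed over the distinct intervals of each. The monoamine genes (90.6 kb) had 14 and 9 summits in 3xFLAG-Da and 1 in each Control library, which is 1.55 and 0.994 per 10 kb in 3xFLAG-Da and 0.110 in Control. The acetylcholine genes (36.8 kb) had 3 and 0 summits in 3xFLAG-Da, the GABA genes (37.4 kb) 2 and 2, and the glutamate gene (20.4 kb) 0 and 0, and none of these 3 systems had a Control summit. Of the 8 3xFLAG-Da regions at the 10 genes, 7 were assigned to monoamine genes, 1 to a GABA gene and 0 to the acetylcholine and glutamate genes. The monoamine regions numbered 3 with summits within 1000 bp of the gene, 2 by the nearest start, 4 with an overlap of 50% of both peaks and 0 in the gene only, and the GABA region was present in the third of these settings alone. In both 3xFLAG-Da replicates the monoamine genes had the highest density, and in both it was above the 0.815 and 0.653 per 10 kb of the arms. The order of the acetylcholine and GABA genes differed between the replicates.

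Within the monoamine genes the summits were unevenly spread. ple alone had 5 of the 14 replicate 1 summits and 4 of the 9 replicate 2 summits, and 3 of the 7 regions. Without replicate 2 the monoamine regions numbered 13, those of the acetylcholine genes 3 and those of the GABA genes 2. The acetylcholine and GABA genes thus changed order, since with both replicates they had 0 and 1. With 1 to 5 genes in a system, the difference between systems was not tested.

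**Figure D3:**
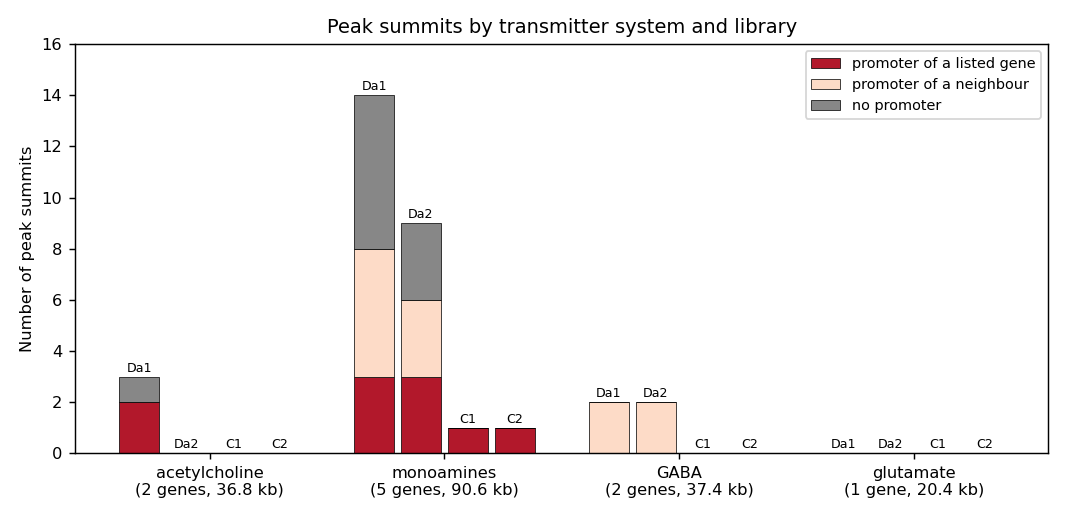
Number of peak summits by transmitter system and IP library (Da, 3xFLAG-Da IP; C, Control IP; 1 and 2, replicates), split by whether the summit lay at the promoter of a listed gene, at the promoter of a neighbour or at no promoter. The monoamine genes hold 14 and 9 summits in 3xFLAG-Da and 1 in each Control library, and both GABA bars consist of neighbour promoters.

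Most summits in the transmitter genes or within 5 kb did not lie at the promoters of these genes. This depended on how summits were assigned. The mean promoter share was 73.2% within 1000 bp of the gene, 75% in the gene only and 78.6% by the nearest start. Of the 19 replicate 1 summits of 3xFLAG-Da, 5 lay at the promoter of a listed gene, 7 at that of a neighbour and 7 at none, and of the 11 replicate 2 summits these were 3, 5 and 3. A summit within 1000 bp of a listed gene's start was counted there even where a neighbour's start was nearer, as it was at DAT. The DAT promoter peak, which overlapped a peak of both Control lists, was kept in the counts of both replicates. The replicate 1 count also held the 2 promoter peaks of ChAT and VAChT that replicate 2 lacked. The share at a listed gene's promoter was 26.3% (95% Wilson interval 11.8 to 48.8%) and 27.3% (9.75 to 56.6%). The single Control summit of each library lay 572 and 566 bp from the DAT start, but nearer to that of CG4945, at 213 and 219 bp. Counting any gene's promoter, the shares were 63.2% (41.0 to 80.9%) and 72.7% (43.4 to 90.3%) near the transmitter genes and 66.4% and 68.7% over the whole lists, which lie inside these intervals. The intervals cover counting error only. Summed over the 10 windows, 30 other genes had a start there. In this sum ChAT and VAChT were counted in each other's window, and a gene with a start in both of these windows was counted in each. Over all genes, a region was assigned to 59.8% of those under 5 kb, 79.5% of those of 5 to 15 kb and 83.3% of those of 15 kb or longer. Of the listed genes longer than 5 kb, VGlut, ChAT, VAChT and DAT, of 10368, 26844, 13416 and 6672 bp, had none. ple, Gad1 and Vmat, of 6170, 14668 and 21120 bp, had a region.

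The replicates differed in how many of these peaks they shared. Of the 19 replicate 1 summits, 9 belonged to a peak that overlapped a replicate 2 peak, which is 47.4% (27.3 to 68.3%) against 66.9% over the whole list. Of the 11 replicate 2 summits 10 did, 90.9% (62.3 to 98.4%) against 91.9%. Of the 10 unshared replicate 1 summits, 7 would have passed the threshold of replicate 2 when scaled to its coverage and 3 would not. Of the 9 shared ones, 1, that near Gad1, would not have passed either, although replicate 2 had a peak there (fold 4.02). The scaling can thus fail a peak that replicate 2 had.

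The E-box CAGCTG was found within 50 bp of the summit in 4 of the 8 regions, at the promoters of ple, CG10561, Aplip1 and mip120. This was 50% (21.5 to 78.5%) of the regions, against 14.1% of all 6647 regions on the arms. With CAGGTG and CAGATG added, searched on both strands and thus also as CACCTG and CATCTG, the counts were 4 of 8 against 26.4% of all regions. Any CANNTG was present in 4 of 8 against 51.9%. In the stretch from 250 bases before to 50 bases after each transcript start, 1 of these 3 words was present at 5 of the 10 genes (ChAT, VAChT, ple, Gad1 and VGlut), against 40.4% of all protein-coding genes. ChAT and VAChT share this stretch. Among these 5 genes only ple had a promoter region, and Ddc, the other gene with one, had 0 E-boxes of any kind in the stretch.

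The same measurements were made for 20 further genes of the pathways, which serve cofactor and amine synthesis, transport, and breakdown or recycling. Of these, 15 had a 3xFLAG-Da region and 10 had one at their own promoter, against 65.1% and 38.8% of all genes and against 5 and 2 of the 10 listed genes. A promoter region was present at Ace (acetylcholinesterase), Pu (GTP cyclohydrolase, for the cofactor of the amino acid hydroxylases), Tbh (octopamine synthesis), SerT (serotonin transporter), speck (the arylalkylamine N-acetyltransferase gene AANAT1), Gabat (GABA transaminase), Eaat1 and Eaat2 (glutamate transporters), Gs2 (glutamine synthetase) and Gdh (glutamate dehydrogenase). ChT, Tdc1, Hdc, CarT and Gat had a region elsewhere in their interval, and Hn, Tdc2, prt, e and t had none. Each of these regions lay at the start of another gene. For ChT this was CG7706 (130 bp), for Tdc1 Hsepi (74 bp) and for Hdc CG12912 and Hr3 (170 bp). For CarT it was Fs(2)Ket (120 bp) and for Gat mir-954 (26 bp). Assigned by the nearest start, 9 of the 20 further genes had a region. The shared region at the promoter of t, which encodes a hydrolase that frees dopamine and histamine from their conjugates, overlapped a peak of both Control lists and was therefore not counted, and its folds were 16.3 and 13.3 in 3xFLAG-Da against 47.2 and 57.0 in Control.

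VGlut had 0 peaks, and all 4 of the further glutamate genes, several of which act in glia, had a promoter region, against 38.8% of all genes. This difference within the glutamate system was not tested. The promoter peak of Gdh had folds of 11.7 and 22.7, and that of Gs2 folds of 11.2 and 12.8 with CAGCTG within 50 bp of the summit in both replicates, and neither had a Control peak. These were above the folds of the ple promoter, 8.43 and 7.98. Eaat1 had folds of 4.69 and 4.75 at its start. speck had 7 regions, the most of the 30 genes, of which 2 were at its promoters. Those past the end of speck lay 5 bp from the start of spag and 174 bp from that of CG3328.

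By role over all 30 genes, promoter regions were present at 4 of 11 synthesis genes (ple, Ddc, Pu, Tbh), 0 of 5 vesicular transporter genes, 3 of 7 plasma membrane transporter genes and 5 of 7 genes for breakdown, conjugation or recycling. Counting regions anywhere in the interval, also those at the starts of neighbours, these were 8, 1, 6 and 5. Of all genes 38.8% had a promoter region and 65.1% a region anywhere, and the synthesis and plasma membrane transporter genes had promoter shares near the first value. The single region of the vesicular transporter genes was that at mip120 near Vmat. With 5 to 11 genes in a role, the difference between roles was not tested.

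**Figure D4:**
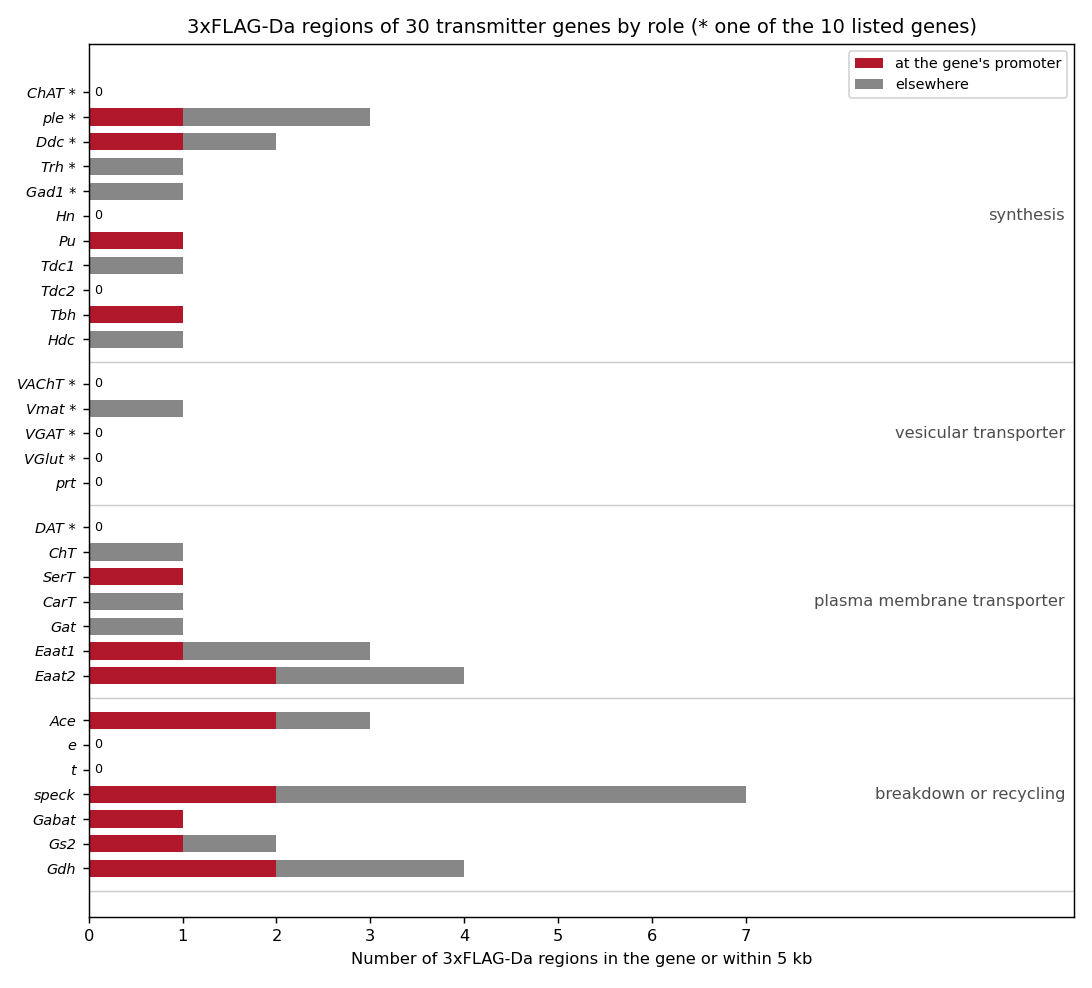
Number of 3xFLAG-Da regions in each of the 30 transmitter genes or within 5 kb, grouped by role, with regions at the gene's own promoter in red and others in grey, and the 10 listed genes marked by an asterisk. The 5 vesicular transporter genes have 1 region between them, none at a promoter, and speck has the most, with 7.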

How the data were processed

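Anti-FLAG ChIP-seq of heads was analysed from the 4 deposited peak lists, 1 per IP sample, and groups and replicate numbers came from the sample titles. The study calls the replicates biological. Reads of 75 bp (single-end) were trimmed with BBDuk by the authors and mapped to BDGP6 with Bowtie2. Duplicates and low mapping quality were filtered out. MACS2 then called peaks of every IP library over the matching input, with a q-value cutoff of 0.05 and without pooling. The submitters' processing notes name bcl2fastq 2.17.1.14, Bowtie2 2.5.1, SAMtools 1.12, deepTools 3.5.0 and MACS2 2.2.7.1. The deposited fold is a linear ratio of pileup to local background, the deposited significance values are −log10 p and −log10 q, and the deposited score, which is 10 times the −log10 q as a whole number, was not used. The deposited summit offset gave the summit positions.

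Read depth is not written in the lists. Pileup and background were recovered from the fold and the −log10 p under the Poisson model of MACS2, and a whole-number pileup matched within 0.002 for 100% of the peaks. The lowest background that many peaks shared was read as the coverage of the library. This procedure and the assignment of regions were tested on simulated data. To ask whether a peak would pass in a shallower library, its pileup and background were scaled by the ratio of coverages and compared with the loosest p-value of that list.

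Gene models came from Ensembl release 115 and sequence from Release 6, while the authors used Ensembl release 104. Of 16229 start codons, 99.9% read ATG, and 0 peaks ran past the end of an arm, so coordinates match. Coordinates count from 1. Peaks of both 3xFLAG-Da IP lists that overlapped by 1 bp or more were merged to 7237 shared regions, 588 of which overlapped a Control IP peak. As summit of a region, the one from the list where its fold ranked higher was taken. Distances run to the nearest start of the gene. Where a region held several summits of 1 list, each was counted as a summit.

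All 10 listed genes were named with every peak assigned to them, further pathway genes were named by whether they had a region, and neighbours were named where their start was nearest to a peak. The members, the pathway list and the 3 E-boxes were chosen with earlier results of these data known. The number of summits was tested by exact permutation of libraries (two-sided), and shares carry 95% Wilson intervals. Alternatives were the distance around the gene, a stricter threshold, the promoter distance, the overlap that counts as shared, assignment to the nearest start, Control regions kept, the E-box window, scaling to Control coverage, pairing by replicate number, and leaving out each library. Python 3.11.15, numpy 2.4.6, pandas 2.3.3 and scipy 1.17.1 were used.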

Additional observations from a re-analysis of the deposited data

How the results depend on the processing

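Some alternatives made the promoter share a majority or put acetylcholine regions above GABA regions. A count was taken as the same within 1.5 times, the promoter share within the SD between replicates, the sharing within its 95% Wilson interval, and the difference in summits by its sign and its side of the threshold. On these terms 52 of 85 values recomputed with all libraries in use were the same, as were 36 of 42 with 1 library left out. Some of these could not have changed. VGlut had 0 peaks in every list, and the only Control peaks at the 10 genes lay at DAT in both Control lists. The permutation p could not fall below 0.333, so its side of the threshold was fixed. These tallies are therefore not a measure of stability. The difference in summits at the 10 genes was 14, and it was 4.5 within 1000 bp of the gene, 1.5 in the gene only, 4.5 by the nearest start, 7 when scaled to Control coverage and 11 with a −log10 q of at least 5. It stayed positive in these settings, each with an exact permutation p of 0.333.

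Main values were 5 genes with a region, 2 with a promoter region, a mean promoter share of 26.8%, 4 regions with one of the 3 E-boxes, 63.3% of summits shared between replicates, 7 monoamine regions, 1 GABA region and 15 pathway genes. Within 1000 bp of the gene, genes with a region fell to 2, regions with an E-box to 1, monoamine regions to 3 and GABA regions to 0. The promoter share was 73.2%, as summits beyond that distance dropped out. In the gene only, genes with a region, promoter genes, E-box regions, monoamine and GABA regions were all 0, the promoter share was 75%, sharing 33.3% and pathway genes 7, since every region of the 10 genes had its summit outside the gene. Assignment to the nearest start gave 2 genes, a promoter share of 78.6%, 1 E-box region, 44.4% sharing, 2 monoamine regions, 0 GABA regions and 9 pathway genes. With a −log10 q of at least 5 there were 1 promoter gene, a promoter share of 15.6% and 0 GABA regions. A promoter of 500 bp gave a share of 17%. An overlap of 50% of both peaks gave 1 promoter gene, 33.3% sharing and 4 monoamine regions, and summits within 100 bp gave 1 promoter gene. Scaled to Control coverage there were 3 genes with a region, 1 with a promoter region, a share of 18.8%, 0 GABA regions and 8 pathway genes. In each setting with 1 promoter gene that gene was ple. The cause of these changes was not tested beyond the setting itself.

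Leaving out each library in turn gave a summit difference of 10 to 18, 5 to 8 genes with a region, 2 to 4 with a promoter region, a promoter share of 26.3 to 27.3%, 4 to 5 E-box regions, 0 to 3 acetylcholine, 7 to 13 monoamine, 1 to 2 GABA and 0 to 0 glutamate regions, and 15 to 18 pathway genes. The highest counts came without 3xFLAG-Da IP replicate 2, where replicate 1 stood alone, and 2 GABA regions also came without replicate 1. Sharing stayed at 63.3% without either Control library and has no value without a 3xFLAG-Da library.

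With the replicate number as a block, the difference within pairs was 14 and the exact permutation p was 0.5, the smallest that 2 pairs can give. The labels give the same numbers in both lines, and nothing says that they mark a shared batch. Depth limits the comparison with Control where peaks would not pass at Control coverage, which holds for all peaks of ChAT, for the promoter peak of Ddc in both replicates and for the regions near Trh and Gad1 in replicate 1.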
